A study of Mus musculus with 4 samples.

Results

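Trem2 and the proteins it signals through were followed as 6 genes, named by symbol, of the 32372 gene features that were counted: the receptor Trem2, its membrane adaptors Tyrobp (DAP12) and Hcst (DAP10), the kinase Syk, the phospholipase Plcg2 and the lipid phosphatase Inpp5d (SHIP1). Their transcripts were measured by 10x 3′ single-cell RNA sequencing in myeloid cells sorted for CD11b and CD45 from the left brain hemisphere of female mice 4 months old. The 2 cKO libraries were labelled APP/PS1:miR-155 cKO, with miR-155 deleted in microglia, and the 2 Control libraries were labelled APP/PS1, so every mouse carried the amyloid-forming APP/PS1 transgenes. The labels give neither the Cre driver nor the deleted stretch, and call the libraries of a group biological replicates without tying them to animals. Levels were read in 13940 barcodes that held 1000 UMIs (unique molecules) or more from 500 genes or more, with mitochondrial UMIs no higher than 10%, and their relation to the neurodegenerative microglial state MGnD was read from how many of the 5 genes Clec7a, Itgax, Lpl, Cst7 and Igf1 a cell showed at equal depth.

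Trem2 is a surface receptor of microglia for lipids, lipoproteins and amyloid. It has almost no signalling tail of its own and pairs in the membrane with Tyrobp, whose ITAM motif, once phosphorylated by Src-family kinases, recruits Syk. Hcst is a second adaptor that Trem2 can use, and it couples to PI3-kinase through its own cytoplasmic motif. Syk in turn activates Plcg2, which cleaves the membrane lipid that PI3-kinase also uses, while Inpp5d removes a phosphate from the PI3-kinase product and dampens the signal. In amyloid models microglia without Trem2 do not complete the change to the MGnD or disease-associated state. Inpp5d is a known target of miR-155 in mouse and human immune cells.

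The microRNA and its match in Inpp5d are shown because the deleted gene acts on messages through such matches. The mature strand from RefSeq (GRCm38.p6, chr16:84714143-84714165, plus strand) is printed 5′ to 3′ with its seed, bases 2 to 8, in capitals, and the Inpp5d 3′ UTR (GENCODE M21, GRCm38, chr1:87719827-87719856, plus strand) with the match to that seed in capitals.
mmu-miR-155-5p: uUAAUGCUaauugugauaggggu
Inpp5d 3′ UTR: tgtttttaaaaAGCATTAaagaaaaccatc
The match starts at base 1041 of the 1706 bases of that UTR, at position 87719838, and is followed by an A, which makes it the longer form AGCATTAA. It was the single match in Inpp5d, and the longest annotated 3′ UTRs of the other 5 genes held none. Of 11845 genes tested for genotype that have an annotated 3′ UTR, 9.68% held AGCATTA and 3.29% held AGCATTAA. A match is a description of the sequence and not evidence of binding.

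The 6 genes lie apart except for the adaptors. On GRCm38, Trem2 lies at chr17:48346401-48354147, Syk at chr13:52583173-52648792, Plcg2 at chr8:117498291-117635142 and Inpp5d at chr1:87620312-87720507, all on the plus strand. Tyrobp (chr7:30413760-30417585, plus strand) and Hcst (chr7:30417712-30419854, minus strand) converge, with 126 bases between their 3′ ends and no shared exon. The promoter windows of Trem2 and Hcst (RefSeq, GRCm38.p6, 300 bases each) are shown because both genes were higher in MGnD cells, as given below. The window of Trem2 is chr17:48346151-48346450 on the plus strand and that of Hcst is chr7:30419805-30420104 on the minus strand, with matches to GAGGAAG, a form bound by the microglial factor PU.1, or to the E-box TCACGTG in capitals on either strand.
Trem2: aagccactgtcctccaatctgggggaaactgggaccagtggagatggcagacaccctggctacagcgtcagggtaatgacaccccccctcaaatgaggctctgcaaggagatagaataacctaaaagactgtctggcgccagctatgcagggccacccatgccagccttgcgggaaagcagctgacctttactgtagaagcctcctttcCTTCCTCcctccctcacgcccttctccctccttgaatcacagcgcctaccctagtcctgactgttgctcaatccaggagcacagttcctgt
Hcst: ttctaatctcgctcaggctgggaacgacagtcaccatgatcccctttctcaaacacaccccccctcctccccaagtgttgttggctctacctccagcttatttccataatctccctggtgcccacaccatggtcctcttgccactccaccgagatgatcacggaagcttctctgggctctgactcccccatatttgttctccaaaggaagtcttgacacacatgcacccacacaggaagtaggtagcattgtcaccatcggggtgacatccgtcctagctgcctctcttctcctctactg
The Trem2 window held 1 GAGGAAG, read on the minus strand, and the Hcst window held neither motif. Over all 32851 windows 13.6% held GAGGAAG and 3.77% held TCACGTG. Of the 5 genes with a window, Inpp5d also held GAGGAAG and Plcg2 held TCACGTG.

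The cells passing the filter numbered 3828 and 2852 in the cKO libraries and 4351 and 2909 in the Control libraries, with median depths of 6158 to 7236 UMIs. No 2 libraries shared more than 4 cell barcodes. Mir155hg, the host transcript of miR-155, gave 1 UMI in each cKO library, against 7 and 11 UMIs in the Control libraries. Control replicate 1 went against its label: Xist stood at 0.705 CPM (counts scaled to a common library total) there, against 1738 to 1875 CPM in the other 3 libraries. The fits for genotype, for MGnD class and for their interaction are therefore also given without that library for the followed genes. Plcg2 is left out of this in the class fit, and at a fixed class it is done for Trem2 and Inpp5d only. Ratios within depth bands or at the same mix of classes have no such value. Nor do the wider lists of genes, apart from the interaction of Apoe. The run code in the file names is shared by 3 libraries and differs for cKO replicate 2, so a value without cKO replicate 2 is a value within 1 run code. All 12 microglia markers were detected in every library, with summed levels of 24876 and 26107 CPM in cKO and 27799 and 24099 CPM in Control. Neutrophil markers summed to 289 and 48.1 CPM in cKO, against 270 and 0.0788 CPM in Control.

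Trem2 and Tyrobp were read in nearly every cell, and the 4 signalling genes in fewer. With each cell thinned to 2000 UMIs, which leaves 12883 cells and drops 1057 shallower ones, Trem2 averaged 5.36 and 4.98 UMIs per cell in the cKO libraries, against 6.18 and 6.01 in the Control libraries. The groups did not overlap. Tyrobp averaged 7.42 and 5.93 UMIs in cKO cells, against 8.02 and 8.04 in Control cells. Its groups did not overlap either, and the spread was wider in cKO than in Control. Inpp5d averaged 0.760 and 0.876 UMIs in cKO cells, against 0.712 and 0.688 in Control cells, and here the cKO libraries were the higher ones. Syk averaged 0.130 to 0.196 UMIs per cell over the 4 libraries, Plcg2 0.114 to 0.146 and Hcst 0.0769 to 0.10. These counts come from 3′ tags, so levels are compared within a gene and not between genes. Groups that do not overlap were common among all tested genes, as given with the genotype test below.

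The share of cells with at least 1 Trem2 UMI was 97.5% to 98.4% after thinning and 96.2% to 97.6% without it. Cells with no Trem2 UMI after thinning made up 2.40% and 2.51% of cKO cells and 1.73% and 1.60% of Control cells, above the 0.207% to 0.685% that a single common level would leave by counting alone. Cells with 10 or more Trem2 UMIs made up 11.3% and 7.73% of cKO cells, against 15.8% and 14.9% of Control cells. The variance of the thinned count was 2.03 to 2.35 times its mean for Trem2 and 3.29 to 4.70 times for Tyrobp, while it was 0.991 to 1.17 times for the other 4 genes, where counting error sets most of the spread. Hcst, Syk, Plcg2 and Inpp5d were thus too sparse to rank single cells.

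Free RNA, read from barcodes of at most 100 UMIs, also held these transcripts. A droplet of 2000 UMIs of free RNA alone would show a Trem2 UMI in 98.5% and 94.9% of cases in the cKO libraries. In the Control libraries it would do so in 99.5% and 99.4% of cases, and for Tyrobp the range was 95.5% to 99.9%. The shares of cells with a Trem2 or Tyrobp UMI therefore do not by themselves show expression cell by cell. The level in cells over that in free RNA was 1.37 and 1.75 for Trem2 in the cKO libraries, against 1.22 and 1.23 in the Control libraries, and 1.02 to 1.14 over all libraries for Plcg2. A group of 23 cells led by the neutrophil genes S100a8, S100a9, Camp and Ngp gives the level in cells that should lack the receptor. Trem2 stood at 172 CPM there (95% exact Poisson interval 123 to 235, counting error only), and 60.9% of these cells had a Trem2 UMI at a median depth of 8306 UMIs, against 2606 to 3271 CPM over all cells of a library (unscaled). Another 12 cells, led by MHC class II genes with S100a4, Mgl2 and Napsa, held 124 CPM of Trem2. In 16 cells led by Plac8, S100a8 and Itga4 the pooled level was 1095 CPM while 25.0% of cells had a Trem2 UMI. Tyrobp, which is shared by many myeloid receptors, stood at 2947 CPM in the neutrophil-marker cells and 1834 CPM in the MHC class II cells. In those same groups Inpp5d stood at 116 and 96.2 CPM, and Syk at 112 and 82.4 CPM. The 30 cells resembling border-associated macrophages held 2131 CPM of Trem2, 2922 CPM of Tyrobp and 378 CPM of Inpp5d. How much of that came from free microglial RNA was not tested.

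The first comparison asked how the receptor complex changes with the MGnD state. In cells showing at least 3 of the 5 MGnD genes, compared with cells of the same library showing 0, Trem2 and both adaptors rose and Syk and Inpp5d fell. Trem2 reached 5072, 5048, 5456 and 5516 CPM in the cells with at least 3 genes of cKO replicates 1 and 2 and Control replicates 1 and 2, against 1941, 1918, 2252 and 2272 CPM in the cells with 0 (thinned cells, CPM scaled with TMM factors). The 2 sets of 4 values did not overlap. Its log2 fold change was 1.33 (SE 0.04, edgeR quasi-likelihood test with the library as a block, adjusted p = 1.18e-120), with means of 5273 ± 247 and 2096 ± 193 CPM (SD, n = 4 libraries). Tyrobp averaged 8634 ± 704 CPM in cells with at least 3 genes and 2360 ± 181 CPM in cells with 0 (SD, n = 4), and was higher in all 4 libraries (log2 fold change 1.87, SE 0.04, adjusted p = 1.42e-171 by edgeR). Hcst, counted far less often, averaged 110 ± 9.92 CPM, against 29.3 ± 1.69 CPM, with a log2 fold change of 1.91 (SE 0.13, edgeR adjusted p = 6.86e-41). Both adaptors therefore rose by more than the receptor in the fitted values, a difference between genes that was not tested.

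Of the signalling enzymes, Syk and Inpp5d moved the other way, while Plcg2 did not pass. Syk stood at 53.7, 38.8, 55.8 and 46.4 CPM in cells with at least 3 MGnD genes of cKO replicates 1 and 2 and Control replicates 1 and 2, against 79.0, 93.6, 81.5 and 71.0 CPM in cells with 0. It was lower in all 4 libraries, with a log2 fold change of -0.65 (SE 0.13, edgeR adjusted p = 3.31e-06). Inpp5d stood at 293, 250, 255 and 288 CPM in cells with at least 3 genes in the same order, against 365, 409, 354 and 354 CPM in cells with 0. It was also lower in every library, with a log2 fold change of -0.42 (SE 0.08, edgeR adjusted p = 2.20e-07). Plcg2 averaged 55.0 ± 3.74 CPM in cells with at least 3 genes and 61.4 ± 5.07 CPM in cells with 0 (SD, n = 4), a difference that did not pass (log2 fold change -0.16, 95% interval -0.42 to 0.10, edgeR adjusted p = 0.377). Of the 9732 genes tested 36.4% passed, 19.7% higher and 16.7% lower, and 5 of the 6 genes are to be read against that background.

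The scaling matters for the falls. Without TMM factors (normalisation by library size alone) the median of all tested genes was -0.37 on the log2 scale, against -0.03 with them. On that scale Plcg2 also passed (-0.50, edgeR adjusted p = 0.000476) with Syk at -0.99 and Inpp5d at -0.76, and Trem2, Tyrobp and Hcst rose by 1.00, 1.54 and 1.57. The split of all calls was then 1091 higher and 4004 lower, against 1918 higher and 1623 lower with TMM. The directions of the 6 genes were the same under both scalings. Without Control replicate 1 the log2 fold changes were 1.35 for Trem2, 1.85 for Tyrobp, 1.94 for Hcst, -0.72 for Syk and -0.40 for Inpp5d, and all 5 still passed.

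**Figure D1:**
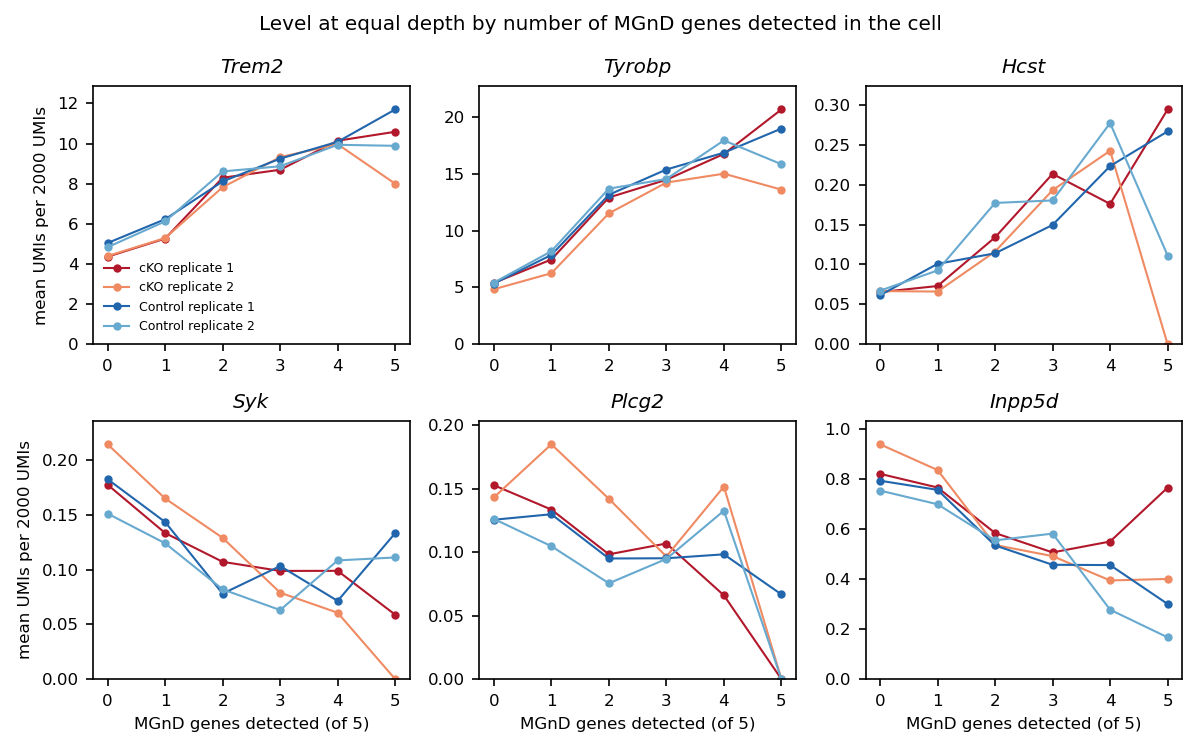
Mean UMIs per cell thinned to 2000 UMIs (vertical axis, from 0, a scale of its own per gene) by number of MGnD genes detected, 0 to 5 (horizontal axis), with a line for each of the 2 cKO and 2 Control libraries. Trem2 and Tyrobp climb in all 4 libraries from 0 to 4 genes, Syk and Inpp5d fall in all 4 from 0 to 2 genes, and the points at 5 genes rest on 5 to 30 cells a library.

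The class means shifted with the number of MGnD genes. Whether single cells change by degrees or the mix of cells differs between classes was not tested. At 2000 UMIs of free RNA alone, 29.2% and 54.1% of droplets would show 0 of the 5 genes in cKO. The shares were 16.4% and 16.9% in Control, so cells with 1 gene may also read free RNA. These means carry no TMM factors, and the falls of Syk and Inpp5d are to be read on that scale. Trem2 averaged 4.66, 5.73, 8.21, 9.03 and 10.0 UMIs per 2000 in cells showing 0, 1, 2, 3 and 4 MGnD genes (mean of the 4 libraries), and each of these steps was upward in all 4 libraries. From 4 to 5 genes it was upward in 2 of 4 libraries, over 70 cells in all. Tyrobp followed the same course with averages of 5.25, 7.43, 12.8, 14.6 and 16.6 UMIs. The widest step of both genes lay between 1 and 2 MGnD genes. Hcst averaged 0.0651 UMIs with 0 genes and 0.230 with 4, and was upward in all 4 libraries from 1 to 2 and from 2 to 3 genes. Inpp5d averaged 0.826, 0.764, 0.552, 0.509 and 0.419 UMIs over the same classes, downward in all 4 libraries from 0 to 1 and from 1 to 2 genes. Syk averaged 0.181, 0.142, 0.0991, 0.0860 and 0.0848 UMIs, with its falls in all 4 libraries also between 0 and 2 genes. Plcg2 stayed between 0.0982 and 0.138 UMIs up to 4 genes and fell in all 4 libraries at a single step in that range, from 1 to 2 genes.

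Cells of the MGnD class were deeper before thinning, with medians of 10218 and 13843 UMIs in cKO and 11280 and 12576 UMIs in Control for cells with at least 3 genes, against 5827 and 7046 in cKO and 5692 and 5977 UMIs in Control for cells with 0. Within cells of 5000 to under 10000 UMIs, 425 with at least 3 genes and 4537 with 0, the ratio of the classes was 1.80 to 2.13 for Trem2 over the libraries, 2.30 to 2.73 for Tyrobp and 1.96 to 3.52 for Hcst. It was 0.455 to 0.762 for Syk and 0.417 to 0.712 for Inpp5d. Within cells of at least 10000 UMIs the ratios were 1.98 to 2.22 for Trem2, 3.00 to 3.34 for Tyrobp, 0.259 to 0.570 for Syk and 0.510 to 0.637 for Inpp5d. Each of these genes kept its side of 1 in every library in both bands. These ratios carry no TMM factors, and without such factors the median of all tested genes was -0.37 on the log2 scale. A ratio of 1 is therefore not the level of a typical gene, and the ratios of Syk and Inpp5d are to be read against that median. Between 2000 and 5000 UMIs, where 82 cells showed at least 3 genes (3 of them in cKO replicate 2), the ratio was 1.74 to 1.75 for Trem2 and 1.93 to 3.53 for Tyrobp, while Inpp5d spanned 0.293 to 1.03 and Syk 0 to 1.05, and Hcst stood at 0 in 1 library. A droplet of 2000 UMIs of free RNA alone would show at least 3 of the 5 genes in 3.54% and 0.790% of cases in the cKO libraries and 7.67% and 7.98% in the Control libraries, against 10.1% and 5.70% of cKO cells and 12.8% and 12.3% of Control cells, so the class also reads free RNA, whose part in these differences was not tested. Cells with a heat-shock UMI (Dnajb1, Hspa1a or Hspa1b) were 44.0% and 59.2% of the cKO cells and 42.4% and 37.2% of the Control cells with at least 3 genes, and 73.0% and 84.4% of the cKO cells and 70.2% and 64.0% of the Control cells with 0. In cells without such a UMI the class changes were 1.37 for Trem2, 1.88 for Tyrobp, 1.81 for Hcst, -0.48 for Syk and -0.43 for Inpp5d on the log2 scale.

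The wider pathway was read from lists of its ligands and sheddases, other receptors, kinases, adaptors, downstream enzymes and inhibitors. Of 84 listed genes 73 were tested for MGnD class by edgeR, of which 19 rose and 26 fell, and their median log2 fold change was -0.17, against -0.03 over all tested genes. The shares over all 9732 genes were 19.7% higher and 16.7% lower, and the counts by list below stand beside those shares. Among other ITAM-type receptors and adaptors 2 rose and 1 fell of 4 tested, with a median of 0.25. Fcer1g, the ITAM adaptor of Fc receptors, rose by 0.77 and the CD300-family receptor Cd300c2 by 0.37, while Siglech, a sialic-acid receptor that uses Tyrobp in the mouse, fell by 0.27 on the log2 scale. Fcer1g averaged 3130 CPM in cells with at least 3 MGnD genes and 1833 CPM in cells with 0. Among ligands and genes of Trem2 cleavage 4 rose and 3 fell of 8 tested, with a median of 0.11. Apoe, a lipoprotein ligand of Trem2, showed the log2 fold change 4.39 and averaged 14351 CPM, against 695 CPM, and Lgals3, which encodes galectin-3, showed 2.99 at 42.1 CPM, against 4.93 CPM. Ms4a6d, of the MS4A family whose human locus is tied to soluble TREM2, fell by 1.35.

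Of 9 Src and Tec family kinases and their regulators 3 rose and 4 fell by the edgeR test, with a median of -0.24. Lyn, a Src-family kinase, fell by 0.59 on the log2 scale to 344 CPM in cells with at least 3 MGnD genes, against 515 CPM in cells with 0. Fgr and Fyn rose by 2.59 and 2.12, to 27.3 and 31.8 CPM, against 4.23 and 6.85 CPM. Of 18 cytosolic adaptors and PI3-kinase subunits tested, 8 fell and 2 rose, against 16.7% lower and 19.7% higher over all genes, with a median of -0.46. Pik3r1, a regulatory subunit of PI3-kinase, fell by 0.67 and the adaptor Lcp2 (SLP-76) by 0.62, whereas the membrane adaptor Lat2 rose by 1.08. Downstream, 5 genes rose and 4 fell of 21 tested, with a median of -0.01. Prkcd, a protein kinase C, fell by 0.82, while Ctnnb1 (β-catenin) rose by 0.57. Among phosphatases and inhibitory receptors 3 rose and 6 fell of 13 tested, with a median of -0.12. Lilrb4a, an inhibitory immunoglobulin-like receptor, rose by 4.85, and Cd33 and Cd300a fell by 0.97 and 1.21.

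**Figure D2:**
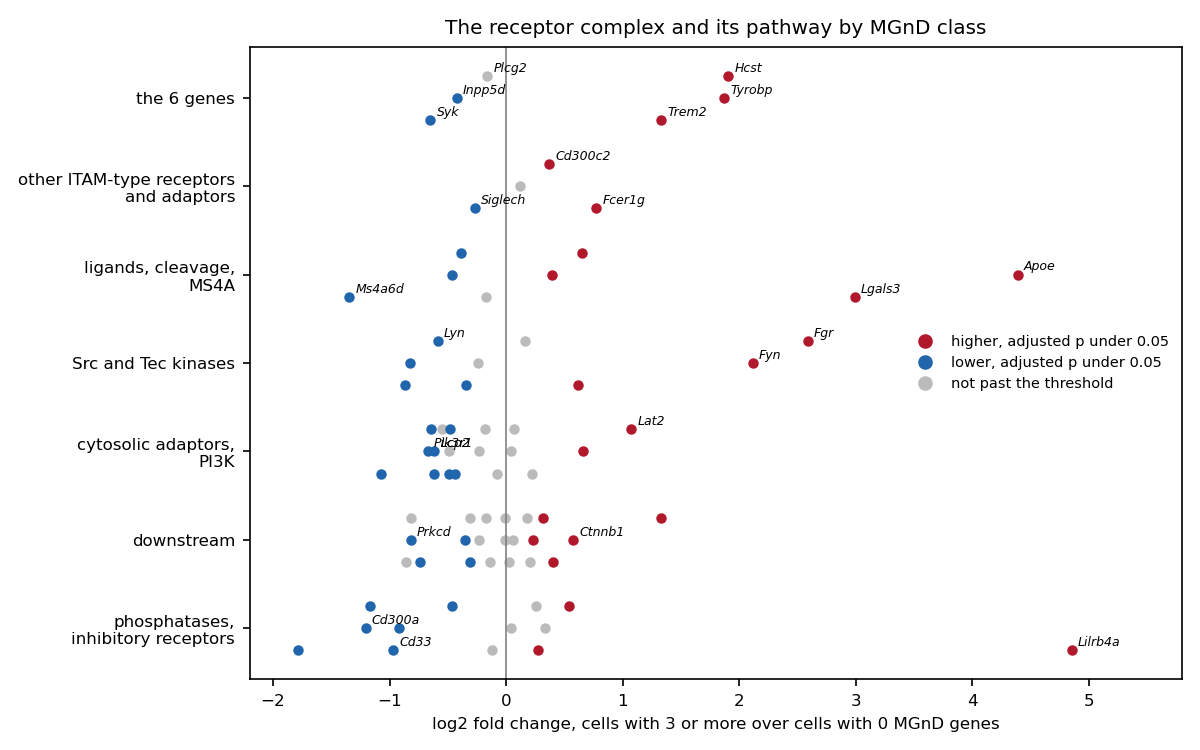
Log2 fold change of cells with at least 3 over cells with 0 MGnD genes (horizontal axis) for the 6 genes and 6 pathway lists (rows, points staggered for legibility); red and blue mark adjusted p under 0.05, grey marks genes that did not pass, and the genes named in the text carry labels. Trem2, Tyrobp and Hcst sit at 1.33 to 1.91, while the adaptor and PI3-kinase row lies mostly left of 0 with 8 blue and 2 red points.

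Unsupervised clusters of the cells, which used these genes among others and are given as a description with no test, ordered the genes in the same opposed way. The 1967 cells of a cluster led by Cst7, Fabp5, Igf1 and Lpl held 4792 CPM of Trem2 and 7979 CPM of Tyrobp, with 236 CPM of Inpp5d. A smaller cluster of 237 cells led by Fabp5, Cox6a2 and Gm1673 reached 4903 CPM of Trem2, 10169 CPM of Tyrobp and 109 CPM of Hcst, with 80.4 CPM of Inpp5d and 24.2 CPM of Syk. In that cluster Inpp5d spanned 72.5 to 94.1 CPM over the libraries. The 212 cells of an interferon-response cluster led by Ifit2 and Ifit3 came next, with 3906 CPM of Trem2 and 6509 CPM of Tyrobp. A larger interferon-response cluster, of 1107 cells led by Cxcl10, Cxcl9 and Ifit3, was lower in both. It held 2361 CPM of Trem2 and 2599 CPM of Tyrobp, with 419 CPM of Inpp5d. A cluster of 848 cells at a median depth of 1293 UMIs, led by Gm43221, Malat1 and mt-Nd6 among others and left without a cell type name, held 831 CPM of Trem2 and 383 CPM of Tyrobp but 765 CPM of Inpp5d and 115 CPM of Syk. Barcodes of 1000 to under 2000 UMIs include many cells of that cluster and are not a separate observation. They averaged 1394 CPM of Trem2, 1357 CPM of Tyrobp and 677 CPM of Inpp5d over the 4 libraries. The deeper bands averaged 2487 to 3303, 2857 to 4578 and 378 to 403 CPM in the same order.

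**Figure D3:**
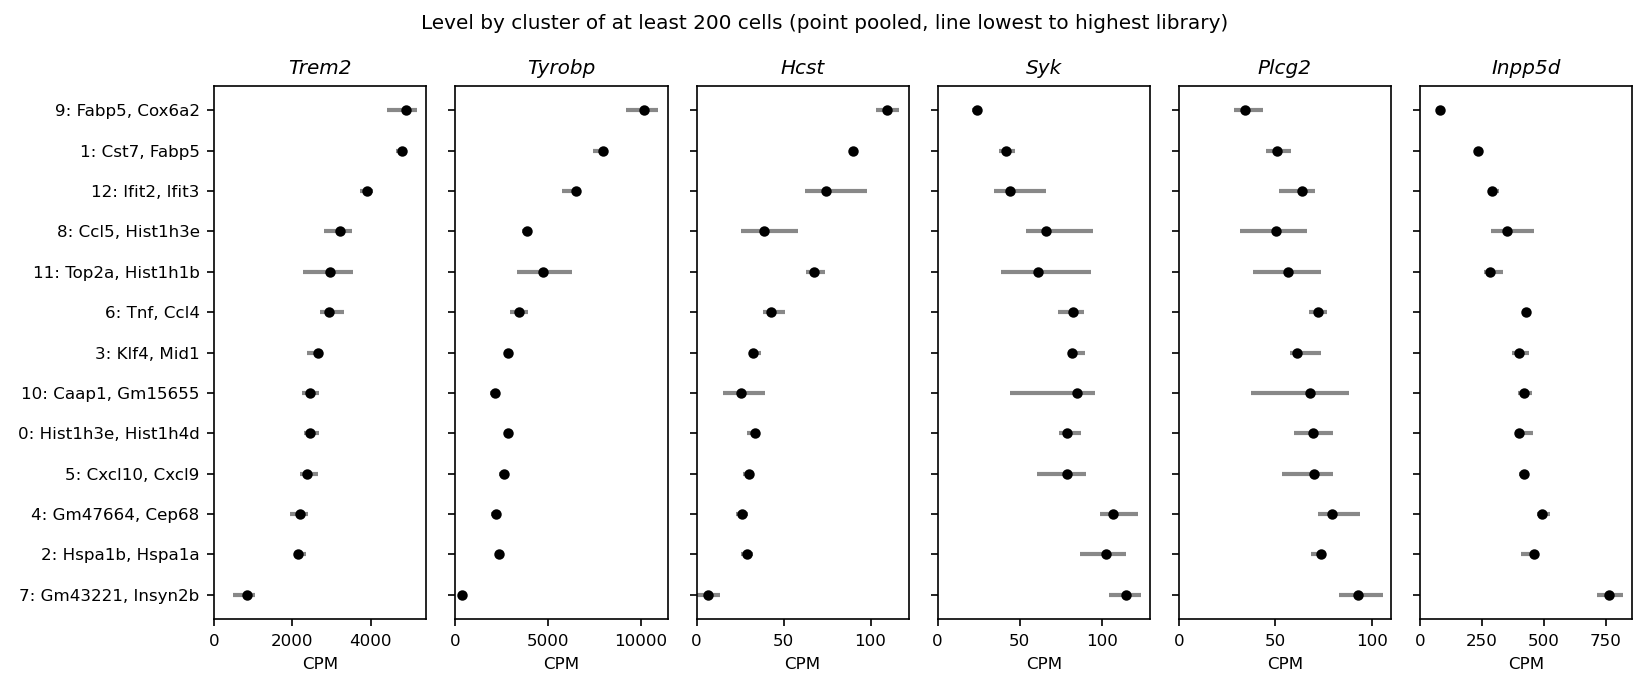
Level of each gene in CPM (horizontal axis, from 0) in the 13 clusters of at least 200 cells (rows, named by number and leading genes, ordered by Trem2); points pool the libraries and lines run from the lowest to the highest library. Tyrobp and Hcst are highest in the same 3 clusters as Trem2, while Inpp5d and Syk are lowest in the cluster led by Fabp5 and Cox6a2 and highest in the low-depth cluster at the bottom.

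Within single cells Trem2 and Tyrobp also went together. Tyrobp averaged 13.9 UMIs per 2000 in cells with 10 or more Trem2 UMIs, against 4.66 in cells with none. In cells showing 0 MGnD genes the same values were 6.98 and 4.26 UMIs. Pearson's r of the log-transformed thinned counts was 0.34 to 0.44 over the 4 libraries in all cells and 0.16 to 0.18 in cells with 0 MGnD genes. It is a description over cells that share a library. Every other pair among the 6 genes lay between -0.16 and 0.17, which in counts this sparse is not a finding.

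Likeness to 4553 genes was ranked over 20 sums, 5 groups of cells by number of MGnD genes in each of 4 libraries, centred within library. The rankings leave out the followed genes themselves and the 5 MGnD genes that define the classes. Among the followed genes, Pearson's r of Trem2 was 0.994 with Tyrobp and 0.965 with Hcst. It was -0.858 with Syk, -0.751 with Plcg2 and -0.860 with Inpp5d. Of the ranked genes, those most like Trem2 were Serpine2, a secreted protease inhibitor (Pearson's r 0.996), and the lysosomal enzymes Ctsd (0.994) and Hexa (0.990). Tyrobp was most like Ccl6 (0.996), Ctsd (0.995) and Serpine2 (0.994), and Hcst most like Lrpap1 (0.976), Ctsd (0.966) and Hexa (0.965). Inpp5d was most like Nav3 (0.964), Hjurp (0.952) and Celf2 (0.950), Syk most like Ldlrad4 (0.984), Tmcc3 (0.969) and 1700017B05Rik (0.967), and Plcg2 most like Rin3 (0.934), Idh2 (0.912) and Slc1a3 (0.898). The points share libraries and the ordering by class, so high values are common. The sums were scaled by their total alone, without TMM factors. On that scale the median of all tested genes fell with MGnD class (-0.37 on the log2 scale), and the negative values are to be read against that. With TMM factors Plcg2 did not pass for class.

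The second comparison asked whether loss of miR-155 changed the complex. None of the 6 genes passed the test between genotypes, although all 6 had groups of libraries that did not overlap. Over all cells Trem2 stood at 2841 and 2490 CPM in the cKO libraries, against 3275 and 3372 CPM in the Control libraries, with a log2 fold change of -0.32 (SE 0.14, 95% interval -0.63 to -0.01, edgeR adjusted p = 0.688). Tyrobp stood at 3885 and 2979 CPM in cKO, against 4375 and 4768 CPM in Control (-0.41, SE 0.17, edgeR adjusted p = 0.685). Hcst stood at 45.5 and 37.7 CPM in cKO, against 50.2 and 55.9 CPM in Control (-0.35, SE 0.10, edgeR adjusted p = 0.676). The receptor and its adaptors were thus all lower in both cKO libraries, with cKO replicate 2 the lowest for each. Syk stood at 77.4 and 90.6 CPM in cKO, against 71.6 and 69.9 CPM in Control (0.25, SE 0.09, edgeR adjusted p = 0.685), and Plcg2 at 71.3 and 69.7 CPM in cKO, against 62.8 and 63.6 CPM in Control (0.16, SE 0.07, edgeR adjusted p = 0.699).

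Inpp5d, the member with a miR-155 match, stood at 379 and 420 CPM in the cKO libraries, against 373 and 377 CPM in the Control libraries. Its log2 fold change of 0.09 (SE 0.09, edgeR adjusted p = 0.862) has a 95% interval of -0.12 to 0.31. Both cKO libraries lay above both Control libraries, and the gap between the groups was smaller than the gap between the cKO libraries. Of 13607 genes tested, 0% passed (0 genes, with 987 at an unadjusted p under 0.05, and 18 by DESeq2), so that no call was made for any gene in this fit. Groups that do not overlap were common: 20.1% of tested genes were higher and 19.2% lower in every cKO than in every Control library, which is the background for the 3 genes on each side. In bulk sums of this kind fewer cells of a state and less RNA per cell cannot be told apart.

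**Figure D4:**
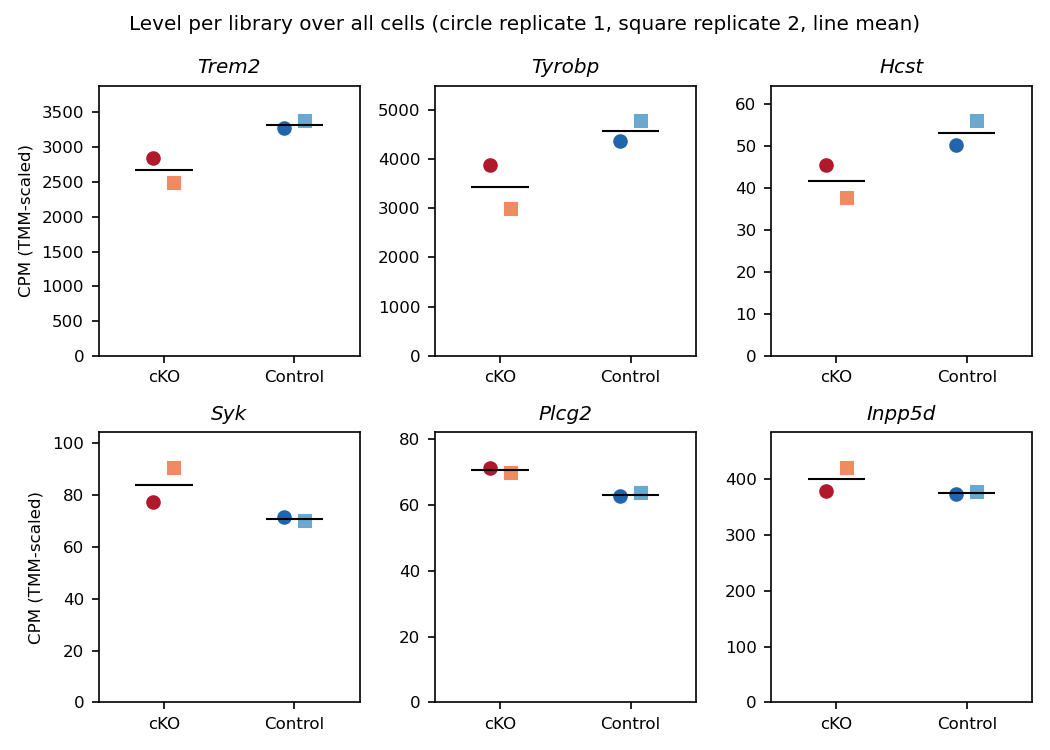
Level of each gene in CPM scaled with TMM factors (vertical axis, from 0) over all cells of a library, cKO left and Control right, with circles for replicate 1, squares for replicate 2 and lines at group means. Trem2, Tyrobp and Hcst are lower and Syk, Plcg2 and Inpp5d higher in both cKO libraries, and none passed the test.

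The calls for single genes depended on the fit. DESeq2 on the same sums called Trem2 (-0.32, adjusted p = 0.0441) and Tyrobp (-0.42, adjusted p = 0.0347), and gave no adjusted p for Hcst, Syk or Plcg2, while edgeR without a low-count filter called Hcst (-0.35, adjusted p = 0.0138). Without cKO replicate 1 edgeR called Tyrobp at -0.62, Hcst at -0.49 and Syk at 0.36 (adjusted p = 0.0456, 0.0112 and 0.0248). Within the shared run code, that is without cKO replicate 2, the log2 fold changes were -0.23 for Trem2, -0.24 for Tyrobp, -0.22 for Hcst, 0.13 for Syk, 0.17 for Plcg2 and 0.02 for Inpp5d, and none passed. Without Control replicate 1 they were -0.34, -0.48, -0.43, 0.26, 0.15 and 0.08 in the same order, and none passed.

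The number of MGnD cells differed between the libraries in the same direction as the receptor. Cells with at least 3 MGnD genes made up 10.1% and 5.70% of cKO cells, against 12.8% and 12.3% of Control cells, and cells with 0 made up 64.9% and 77.1% of cKO cells, against 59.0% and 60.5% of Control cells. Heat-shock UMIs were found in 67.3% and 82.1% of cKO cells, against 63.9% and 58.2% of Control cells, and in cells without one the genotype values were -0.25 for Trem2, -0.32 for Tyrobp, -0.25 for Hcst, 0.20 for Syk, 0.22 for Plcg2 and 0.07 for Inpp5d. Genotype was therefore also compared at a fixed class. In cells with 0 MGnD genes Trem2 stood at 2173 and 2133 CPM in cKO, against 2517 and 2537 CPM in Control (-0.23, 95% interval -0.47 to 0.01, edgeR adjusted p = 0.947). The groups did not overlap there. Over all cells 20.1% of tested genes were higher and 19.2% lower in every cKO than in every Control library. No such share is given for cells with 0 MGnD genes. Free RNA lay the same way, with Trem2 at 2089 and 1491 CPM in cKO, against 2689 and 2586 CPM in Control (unscaled). Tyrobp in free RNA stood at 2648 and 1551 CPM in cKO, against 3499 and 3319 CPM in Control. The part of free RNA in the genotype values, over all cells or at a fixed class, was not tested. Tyrobp in the same cells stood at 2685 and 2347 CPM in cKO, against 2664 and 2843 CPM in Control (-0.13, edgeR adjusted p = 0.969), with overlapping groups. Hcst differed by -0.01 on the log2 scale (32.5 and 32.3 CPM in cKO, 30.7 and 35.2 CPM in Control), and its 95% interval was -0.31 to 0.29.

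Inpp5d in cells with 0 MGnD genes stood at 408 and 455 CPM in cKO, against 395 and 395 CPM in Control (0.13, 95% interval -0.09 to 0.34, edgeR adjusted p = 0.969). Syk and Plcg2 differed by 0.16 and 0.18 on the log2 scale there, and neither passed. In this fit 0.0732% of 10930 genes passed (0.0457% higher and 0.0274% lower), none of them among the 6, and among the passing genes were the heat-shock genes Hspa1a and Hspa1b, higher in cKO by 1.26 and 1.21 (edgeR adjusted p = 0.00266 and 0.00112). In cells with at least 3 MGnD genes Trem2 stood at 4659 and 4721 CPM in cKO, against 4918 and 4958 CPM in Control (-0.07, 95% interval -0.26 to 0.11), and Tyrobp at 7807 and 7200 CPM in cKO, against 8166 and 8339 CPM in Control (-0.14, 95% interval -0.31 to 0.04). Inpp5d differed by 0.08 (95% interval -0.20 to 0.36), and Hcst, Syk and Plcg2 by 0.09 (-0.32 to 0.50), -0.05 (-0.60 to 0.50) and -0.05 (-0.57 to 0.47). None of the 6 passed in these cells, where 0.104% of 6731 genes did (0.0891% higher and 0.0149% lower). Without Control replicate 1, Trem2 differed by -0.24 in cells with 0 MGnD genes and by -0.08 in cells with at least 3, and Inpp5d by 0.13 and -0.02.

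**Figure D5:**
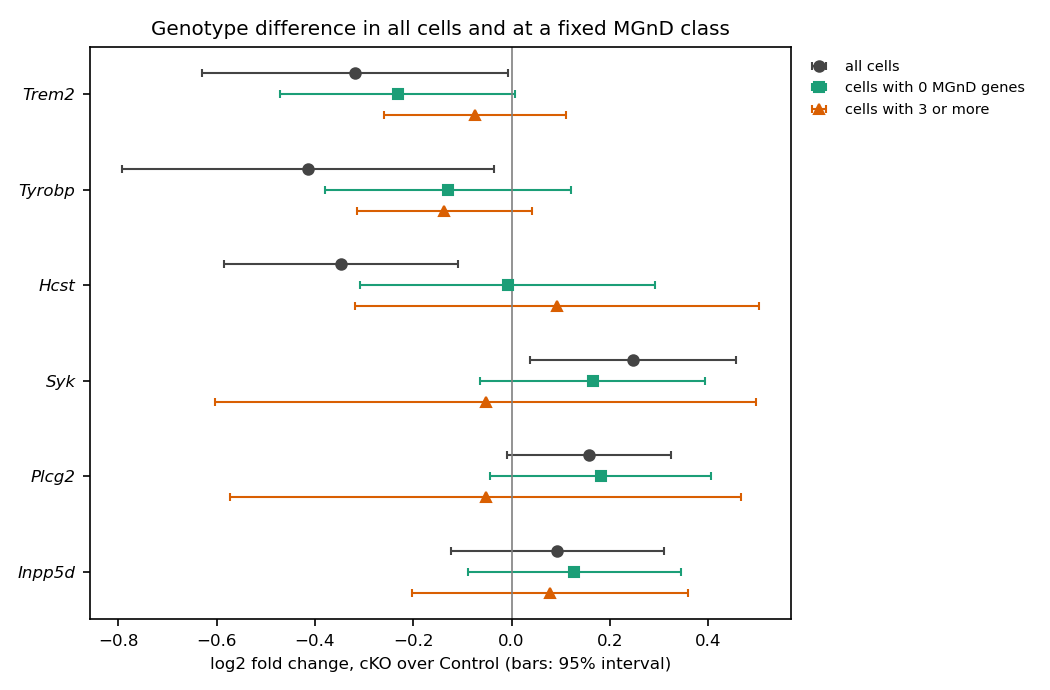
Log2 fold change of cKO over Control (horizontal axis) with 95% intervals from the edgeR fits for each gene (rows), over all cells (circles), cells with 0 MGnD genes (squares) and cells with at least 3 (triangles). The values of Trem2, Tyrobp and Hcst over all cells lie at -0.32 to -0.41, and those at a fixed class lie nearer to 0.

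The class change itself was not called different between genotypes for any of the 6 genes. The interaction, the class change in cKO minus that in Control on the log2 scale, was 0.11 for Trem2 (95% interval -0.03 to 0.25), -0.05 for Tyrobp (-0.19 to 0.08) and 0.06 for Hcst (-0.40 to 0.52). It was -0.20 for Syk (-0.76 to 0.35), -0.30 for Plcg2 (-0.84 to 0.25) and -0.05 for Inpp5d (-0.32 to 0.22). In that fit 0.0969% of 10321 genes passed (0.0678% higher and 0.0291% lower), with edgeR adjusted p of 0.975 to 0.991 for the 6. Without Control replicate 1 the values were 0.11, -0.02, 0.01, -0.15, -0.33 and -0.15 in the order just given.

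Setting every library to the same mix of MGnD classes gives the size of the shift that goes with the mix, as a description over 2 libraries a group. Trem2 at the same mix was 5.37 ± 0.00505 UMIs per 2000 in cKO and 5.91 ± 0.102 in Control, a ratio of 0.909, against 0.848 at the observed mix (5.17 and 6.10 UMIs). The groups did not overlap in either form. For Tyrobp the ratio was 0.928 at the same mix and 0.831 as observed, and for Hcst it was 0.963 with overlapping groups and 0.871 as observed. Inpp5d had a ratio of 1.12 at the same mix (0.797 ± 0.0537 UMIs in cKO and 0.713 ± 0.0201 UMIs in Control) and 1.17 as observed, with no overlap in either. For Syk the ratio was 1.17 at the same mix, with overlapping groups, and 1.24 as observed, and for Plcg2 it was 1.21 and 1.22. These thinned means carry no TMM factors, so they lie on another scale than the fitted values. Over all cells the median log2 fold change of all tested genes was 0.09 by library size alone, against 0.01 with TMM factors. Ratios of cKO over Control thus tend to lie higher without those factors. Groups that do not overlap were also common over all cells (20.1% of tested genes higher and 19.2% lower in cKO), and no such share is given at the same mix.

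Across the wider pathway no gene passed between genotypes over all cells or within a class, and 1 gene, Apoe, passed in the interaction. Of the 84 listed genes 77 were tested, of which 54 had values above 0 and 23 below, with a median log2 fold change of 0.04, against 0.01 over all tested genes, of which 51.7% had values above 0. By list, values above 0 were found for 2 of 6 ITAM-type receptors and adaptors, 6 of 9 ligand and cleavage genes, 7 of 9 Src and Tec kinases, 15 of 18 adaptors and PI3-kinase subunits, 14 of 21 downstream genes and 10 of 14 phosphatases and inhibitory receptors, none of them called. The genes with the smallest p in their lists included the inhibitory receptors Pirb (0.56) and Cd300a (0.26), Prkcd (0.27) and the calcium channel Itpr3 (0.59), Ms4a6d (0.34) and the adaptor Vav2 (0.21), and on the lower side Lilrb4a (-0.59) and Fyn (-0.27). Apoe and Fcer1g had -0.39 and -0.18 over all cells, with 95% intervals that include 0. In cells with at least 3 MGnD genes Apoe stood at 15828 and 13283 CPM in cKO, against 12519 and 15775 CPM in Control, and in cells with 0 at 846 and 705 CPM in cKO, against 479 and 750.5 CPM in Control. The groups overlapped in both classes, and Control replicate 1 was the lowest library in each. The interaction of Apoe was -0.32 (95% interval -0.47 to -0.18, edgeR adjusted p = 0.0194), and within cells with 0 genes its genotype value was 0.34 (95% interval 0.01 to 0.66, adjusted p = 0.947). Without Control replicate 1 the interaction was -0.16 (adjusted p = 1), by DESeq2 it was -0.30 (adjusted p = 0.9998) and thinned to 1000 UMIs it was -0.09 (adjusted p = 1), so the call did not hold under these settings. Among 15 other published targets of miR-155, all tested, 11 had values above 0 and 4 below, with a median of 0.12 and none called. Cebpb, a transcription factor and a target described in mouse, had the lowest p of these at 0.35 (95% interval 0.14 to 0.56), followed by Tab2 at 0.21 and Jarid2 at 0.13. In the MGnD class comparison the same list had 8 genes that fell and 1 that rose of 13 tested, against 16.7% lower and 19.7% higher over all genes, with a median of -0.36, led by Tab2 at -1.05, S1pr1 at 0.92 and Pik3r1 at -0.67.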

How the data were processed

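The authors deposited raw UMI counts per gene and barcode for 4 libraries, for which the submitters' processing notes name Cell Ranger 4.0.0 and the mm10 build. The matrices were unfiltered, with no normalization, and 33130800 to 47574406 UMIs per library. Barcodes with at least 1000 UMIs, 500 genes and at most 10% mitochondrial UMIs were kept, and other cell types were left in except in an alternative. Cells are not replicates: counts were summed per library, and for MGnD class per library and class after thinning each cell to 2000 UMIs without replacement. Sums were fitted with edgeR 4.0.16 in R 4.3.3 (TMM, filterByExpr, quasi-likelihood F test, two-sided, Benjamini-Hochberg at 0.05 over all genes tested). With 2 libraries per group the spread is borrowed across genes. Poisson intervals cover counting error only. Alternatives were DESeq2 1.42.0, RLE scaling, library size alone, no filter, other thinning, other cell filters, microglia-like clusters with 401 likely doublets removed (scanpy 1.11.5, leidenalg 0.10.2), leaving out each library and a replicate block. Scripts were tested on simulated data. Replicates of a group differed by far more than sampling noise (chi-square per gene of 20.5 in cKO and 36.8 in Control). Nothing in the labels states separate animals, so p-values may measure technical spread.

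Genes named beyond the 6 were up to 3 per list with the smallest p in the genotype and in the class fit, the class genes, Mir155hg, Xist and heat-shock genes as checks, and the 3 most alike genes by class pattern. The 6 genes, lists and tests were chosen with earlier results of these data known. Listed genes carry edgeR log2 fold changes. Of the 6 genes, 5 matched a RefSeq promoter window. Same-mix means weight each library's class means by the class shares averaged over the libraries. One gene that this rule names is not reported here.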

Additional observations from a re-analysis of the deposited data

How the results depend on the processing

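For the 6 genes, the MGnD class fit left 83 of 84 alternative values on the same side of the threshold with the same sign and made 1 a call (Plcg2 by library size), and the genotype fit left 75, made 6 calls and gave no adjusted p for 3 (Hcst, Syk and Plcg2 by DESeq2). Library size alone, the second random thinning and the removal of cells with heat-shock UMIs were chosen after seeing the data. The cause of the shifts below was not tested.

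Between genotypes, 0 genes were called as reported, 17 by library size, 350 with no low-count filter, 18 by DESeq2, 4 in thinned cells, 4 in microglia-like clusters, 2 without cells carrying 2 other markers, 11 without heat-shock cells, and 26 to 613 leaving out 1 library. Of the 6 genes, 1 was called with no filter, 2 by DESeq2 and 0 to 3 leaving out 1 library. The labels share replicate numbers but do not pair libraries (correlation of deviations 0.081). The replicate block gave 170 genotype calls, and 15 in cells with at least 3 MGnD genes, with 0 of the 6 genes in either. For MGnD class, 3541 calls became 2278 by DESeq2, 1765 thinned to 1000 UMIs and 6521 with all UMIs.

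For the interaction, 10 calls became 2 by DESeq2, 1 thinned to 1000 UMIs, 54 with all UMIs, 3 without heat-shock cells, 3 in microglia-like clusters and 4 to 9 leaving out 1 library. The Apoe call was lost under DESeq2, RLE scaling, library size, thinning to 1000 UMIs, another thinning, and without either cKO library or Control replicate 1 (-0.49 to -0.16 leaving out 1 library). The interaction's sign turned, leaving out 1 library, for Hcst (-0.037 to 0.11), Syk (-0.72 to 0.016) and Inpp5d (-0.33 to 0.088). Thinning to 1000 UMIs gave -0.53 for Hcst, 0.54 for Plcg2 and 0.082 for Inpp5d, and all UMIs gave -0.0019 for Hcst and 0.023 for Syk. Another thinning gave 0.0038 for Tyrobp, -0.41 for Hcst, 0.18 for Syk and 0.095 for Plcg2. Without heat-shock cells Hcst was -0.22 and Syk 0.26, and with at least 2 MGnD genes -0.034 and 0.084.

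In cells with 0 MGnD genes, 8 calls became 82 with no filter, 4 by DESeq2, 1 with all UMIs, 3 without heat-shock cells and 9 to 78 leaving out 1 library. Hcst turned to 0.044 by library size and spanned -0.12 to 0.082 leaving out 1 library. Syk turned to -0.034 and Inpp5d to -0.021 thinned to 1000 UMIs, and Syk to -0.068 without heat-shock cells. In cells with at least 3, 7 calls became 19 with no filter, 2 by DESeq2, 3 thinned to 1000 UMIs, 16 with all UMIs, 4 in another thinning and 0 to 28 leaving out 1 library. Leaving out 1 library turned Hcst (-0.071 to 0.21), Syk (-0.39 to 0.11), Plcg2 (-0.14 to 0.055) and Inpp5d (-0.064 to 0.15). Trem2 was 0.13 and Hcst -0.54 thinned to 1000 UMIs, where Syk and Plcg2 had too few counts to be tested. All UMIs gave -0.026 for Hcst, 0.18 for Syk and -0.031 for Inpp5d. Another thinning gave -0.42 for Hcst, 0.29 for Syk, 0.29 for Plcg2 and -0.014 for Inpp5d. Without heat-shock cells Hcst was -0.18, Syk 0.20 and Plcg2 0.16.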
